A study of Mus musculus with 2 samples.

Results

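Described here are 41 genes of the bone morphogenetic protein (BMP) and transforming growth factor beta (TGF-beta) pathways in the neural tube of mouse embryos. They comprise 8 BMP and GDF ligands, 5 TGF-beta and activin ligands, the protease Bmp1, 10 receptors, 6 antagonists or decoys, 7 Smads and 4 Id genes. They were chosen by name, as the rows of the gene tables whose gene ID carries one of these symbols in GENCODE release M21. No measured value was part of that rule, though earlier results of these data were known when the members were chosen. All 41 were found among 55536 named genes.

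Ligands of this family are secreted as dimers and bind a complex of type I and type II receptor kinases, in which the type II receptor activates the type I receptor. The type I receptor then phosphorylates receptor Smads, Smad1 and Smad5 on the BMP side and Smad2 and Smad3 on the TGF-beta and activin side, which join Smad4 and enter the nucleus. In the embryonic spinal cord BMPs from the roof plate and the overlying ectoderm pattern the dorsal progenitors, and secreted antagonists such as Noggin, Chordin and Follistatin limit how far the ligands reach.

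The data were polyadenylated RNA profiles of neural tube of strain B6NCrl at embryonic day 12.5, from healthy embryos of both sexes, with no genetic change or treatment named. There was 1 group with 2 libraries, replicate 1 from a pool of 120 embryos and replicate 2 from a separate pool of 88 embryos. Total RNA of each pool (10 ng) was reverse transcribed from oligo-dT primers, fragmented by tagmentation and accompanied by synthetic ERCC spike-in RNAs. Replicate 1 held 33529531 estimated counts and replicate 2 held 35461403. With 1 group no condition could be compared, and levels are given in both libraries without a test. In whole tissue, fewer cells of a type and less RNA per cell cannot be told apart.

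The labelled tissue was checked against its markers. All 6 neural tube markers reached 1 TPM in each library, among them neuronal tubulin Tubb3 at 953 and 982 TPM and the progenitor filament gene Nes at 132 and 110.2 TPM (TPM is a level relative to transcript length, scaled to the same sum in each library). Markers of other cells were present too, and no marker of any of the 9 lists was at 0 in both libraries. The 10 mesenchyme and meninges markers, which include the fibrillar collagen gene Col3a1, summed to 869 and 894 TPM, the 6 muscle markers to 251 and 181 TPM and the 6 sensory ganglion markers to 182 and 264 TPM. Which cells contributed a member's RNA was not tested.

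All members except Gdf7 were expressed, and most stood at moderate levels. Taking 1 TPM in each library as the limit of expression, 40 of 41 members were expressed, 22 reached 10 TPM in both and 8 reached 50 TPM in both. Over all genes 15843 were expressed, 9602 reached 10 TPM in both and 3613 reached 50 TPM in both. The median of the members' mean levels was 12.2 TPM, against 17.0 TPM for all expressed genes and 21.7 TPM for the 13414 expressed protein-coding genes. The 8 highest were the 4 Id genes, the follistatin-like gene Fstl1, the receptor genes Acvr2b and Tgfbr1, and Smad1. The members ranged from Id3, at 255 and 260.5 TPM, to Gdf7, at 0.33 and 0.31 TPM. In the order by mean level, 20 of 40 neighbouring pairs had libraries that did not overlap, and the other 20 pairs overlapped and are not separated by these data.

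**Figure D1:**
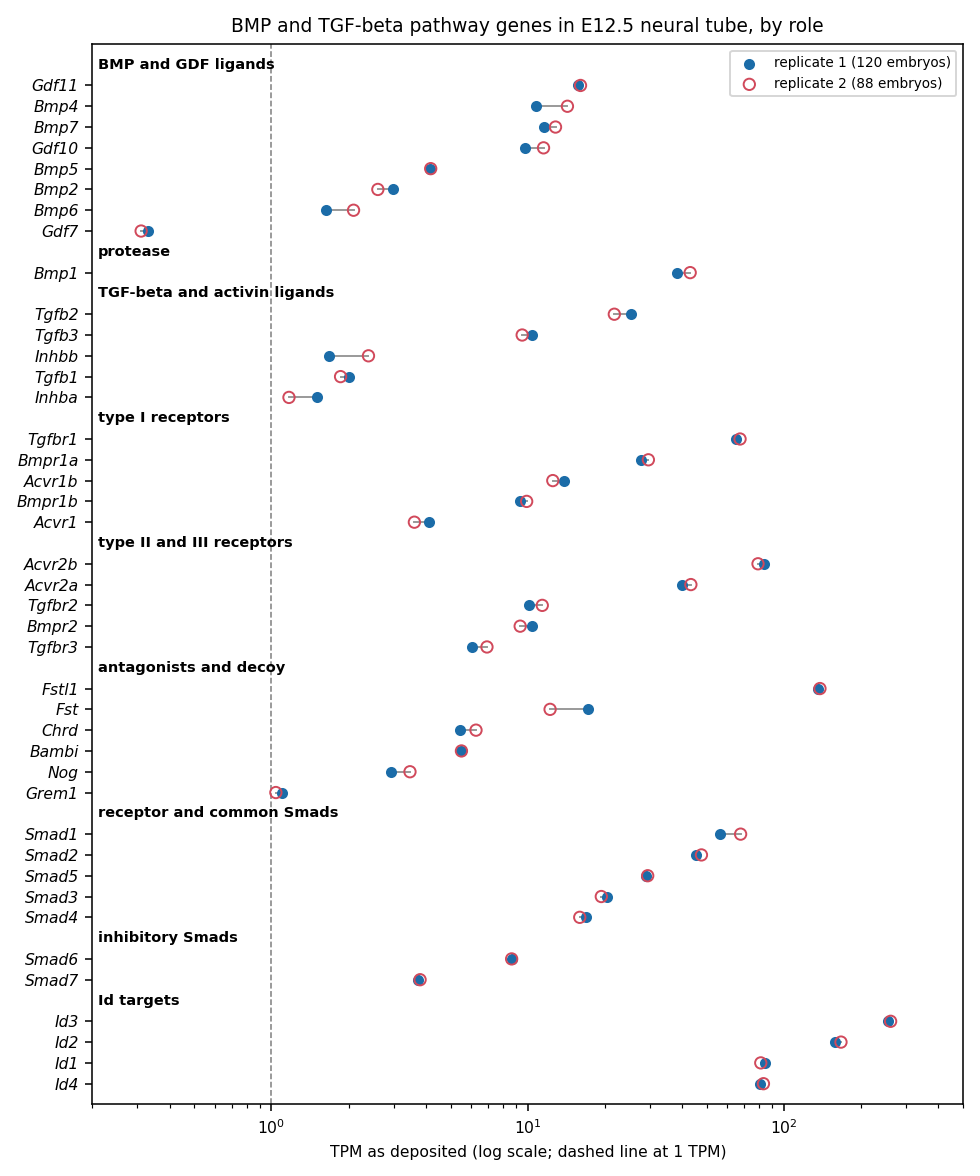
Level of each of the 41 genes in both libraries, grouped by role, with TPM on a logarithmic axis; filled points are replicate 1 and open points replicate 2. The Id genes sit at the right, from 80.7 to 260.5 TPM, and Gdf7 is the 1 gene left of the dashed line at 1 TPM.

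Among the BMP and GDF ligands, Gdf11, Bmp4, Bmp7 and Gdf10 were the highest, and their order was not resolved throughout. Gdf11, which limits neuron production and sets axial identity in the embryo, stood at 15.8 and 16.1 TPM, above both libraries of every other ligand of this group with the M21 annotation, though not of Gdf10 with the older M4. Bmp4, which patterns dorsal neural progenitors, was at 10.8 and 14.3 TPM. Bmp7, a ligand of roof plate and ectoderm, was at 11.6 and 12.8 TPM, between the libraries of Bmp4. The log2 ratio of Bmp7 over Bmp4 was 0.10 in replicate 1 and −0.15 in replicate 2, so neither gene was the higher in both pools. The pair was ordered by other estimates, in opposite directions, with Bmp7 above Bmp4 in the M4 tables (0.10 ± 0.00077) and below it by posterior mean TPM (−0.18 ± 0.05).

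The gap between the Bmp4 libraries was wider in TPM than in reads. The gene had 393 estimated counts in replicate 1 and 467 in replicate 2. Its protein-coding transcript Bmp4-201 stood at 8.65 and 9.25 TPM, close together. The short retained-intron transcript Bmp4-204, of 258 bases, was listed at 0 in replicate 1 and at 2.31 TPM from 7.95 counts in replicate 2.

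Gdf10, also called Bmp3b, was at 9.78 and 11.5 TPM, which overlapped Bmp4 but not Bmp7 or Gdf11. Bmp5, a ligand close to Bmp7 in sequence, was at 4.17 and 4.18 TPM. Bmp2, the nearest paralog of Bmp4, was at 2.98 and 2.60 TPM, below Bmp4 by 2.16 ± 0.43 on the log2 scale (SD, n = 2). Bmp6, another relative of Bmp7, was lowest of the expressed BMP ligands at 1.63 and 2.09 TPM. Bmp6 shares 224 exonic bases with Txndc5 on the opposite strand, which stood at 94.7 and 88.6 TPM, and without a strand-specific step reads from that stretch cannot be told apart.

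Gdf7, a ligand of the roof plate, was the 1 member under 1 TPM. It had 9 counts in each library, which gives 0.33 and 0.31 TPM. The exact Poisson interval of 9 counts, which covers counting error only, ran from 4.12 to 17.1 counts, or from 0.151 to 0.626 TPM in replicate 1. Bmp7 exceeded Gdf7 by 5.25 ± 0.17 on the log2 scale. With so few reads its 2 transcripts were not resolved, and each library gave all reads to a different one.

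Bmp1, which despite its name is a metalloprotease that cleaves procollagens and Chordin, stood at 38.2 and 43.0 TPM. That was above every ligand gene among the members. Of its transcript level, 66.3% and 65.1% was Bmp1-201, the only protein-coding transcript of 7 in the annotation.

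Of the TGF-beta ligand genes Tgfb2 was the highest. Tgfb2 was at 25.4 and 21.8 TPM, Tgfb3 at 10.4 and 9.51 TPM, and Tgfb1, the ligand best known from immune cells and fibroblasts, at 2.01 and 1.86 TPM. Tgfb2 exceeded Tgfb3 by 1.24 ± 0.06 and Tgfb1 by 3.60 ± 0.08 on the log2 scale, in the same order in both libraries. Tgfb1 rested on 77 and 61 counts. The activin subunit genes were low, Inhba at 1.51 and 1.17 TPM and Inhbb at 1.68 and 2.39 TPM, and their ratio was not ordered, with a mean log2 of 0.59 ± 0.62.

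Summed over the paralogs named here, the TGF-beta and the BMP ligand genes were at like levels. Activin subunit and GDF genes were left out of these sums. Tgfb1, Tgfb2 and Tgfb3 together reached 37.8 and 33.1 TPM, and Bmp2, Bmp4, Bmp5, Bmp6 and Bmp7 together 31.2 and 36.0 TPM. The log2 ratio of the sums was 0.28 in replicate 1 and −0.12 in replicate 2, so the order of these sums turned between the pools. They include non-coding transcripts, which took 47.4% and 40.5% of the Tgfb2 level and 12.5% and 23.5% of the Bmp4 level. Over protein-coding transcripts alone, the BMP sum was the higher in both libraries.

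The Tgfb2 level came from several transcripts, and a large part of it was not protein coding. The retained-intron transcript Tgfb2-205 took 33.9% and 32.0% of the gene's level, more than the main coding transcript Tgfb2-201 in replicate 1 (30.8%) and less in replicate 2 (43.3%). The 2 coding transcripts differ by an alternative exon in the precursor that is cut away from the mature ligand. It is shown because it separates the longer from the shorter Tgfb2 precursor. The exon, in capitals between 15 flanking bases of Tgfb2-206 on each side, has 84 bases, or 28 codons, at chr1:186690721-186690804 on the minus strand of mm10.
Tgfb2 exon of 84 bases: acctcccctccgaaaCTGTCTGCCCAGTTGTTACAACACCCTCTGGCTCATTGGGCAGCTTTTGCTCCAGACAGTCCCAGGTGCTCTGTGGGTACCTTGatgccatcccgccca
Transcripts with this exon made up 41.5% of the coding transcript level in replicate 1 and 27.2% in replicate 2. The form without it was thus estimated as the more abundant in both libraries. The gap between the pools was wider than for each of the 5 other coding stretches described here. These shares are model estimates over whole transcripts, and Tgfb2-206 and Tgfb2-201 also differ by 1715 other exonic bases.

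Receptor genes of both branches were expressed, and Tgfbr1 led the type I group. Tgfbr1, the type I receptor of TGF-beta, stood at 64.8 and 67.3 TPM, at the 79.9th percentile of expressed protein-coding genes. Bmpr1a, the broadly expressed BMP receptor also called Alk3, was at 27.8 and 29.6 TPM, which is lower than Tgfbr1 by 1.21 on the log2 scale (mean log2 ratio −1.21 ± 0.02). The activin receptor gene Acvr1b was at 13.8 and 12.5 TPM. Bmpr1b, a BMP receptor also called Alk6, was at 9.31 and 9.90 TPM, and Bmpr1a exceeded it by 1.58 on the log2 scale in each library. Acvr1, or Alk2, a type I receptor for BMP7-like ligands, was lowest at 4.11 and 3.61 TPM. No libraries of these 5 genes overlapped.

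The 3 BMP type I receptor genes summed to 41.2 and 43.1 TPM, against 78.6 and 79.9 TPM for Tgfbr1 and Acvr1b. The log2 ratio of these sums was −0.91 ± 0.03, and the spread between the pools was small beside it.

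Among type II receptors the activin receptors were the highest. Acvr2b was at 83.6 and 79.1 TPM and Acvr2a at 39.8 and 43.3 TPM, a log2 ratio of 0.97 ± 0.14. Both bind activins, GDF11 and several BMPs. Acvr2a shares 446 exonic bases with Orc4 on the opposite strand, which stood at 86.3 and 102 TPM. Bmpr2, the receptor dedicated to BMPs, was at 10.4 and 9.34 TPM, and Tgfbr2, the TGF-beta type II receptor, at 10.1 and 11.4 TPM. These last 2 overlapped and were not ordered, with a mean log2 ratio of −0.12 ± 0.23. Tgfbr3, or betaglycan, which presents TGF-beta ligands to the signalling receptors, was at 6.05 and 6.93 TPM, of which 69.8% and 68.6% was the coding transcript Tgfbr3-201.

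For 3 receptor genes the deposited transcript tables divided the level between coding forms that differ by a short in-frame stretch. These stretches are shown because each separates known variants of the receptor protein. Capitals mark the stretch, and the lower case letters are 15 flanking bases of the transcript that holds it. The Tgfbr1 stretch is at chr4:47393247-47393258 (plus strand), the Tgfbr2 stretch at chr9:116158271-116158345 (minus strand), and the Acvr2b stretches at chr9:119428201-119428224 and chr9:119428353-119428424 (plus strand), all on mm10.
Tgfbr1 stretch of 12 bases: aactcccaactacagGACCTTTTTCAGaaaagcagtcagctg
Tgfbr2 exon of 75 bases: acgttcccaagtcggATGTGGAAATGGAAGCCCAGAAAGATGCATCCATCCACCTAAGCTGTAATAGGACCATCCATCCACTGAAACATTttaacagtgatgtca
Acvr2b stretch of 24 bases: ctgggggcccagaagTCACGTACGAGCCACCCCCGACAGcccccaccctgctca
Acvr2b stretch of 72 bases: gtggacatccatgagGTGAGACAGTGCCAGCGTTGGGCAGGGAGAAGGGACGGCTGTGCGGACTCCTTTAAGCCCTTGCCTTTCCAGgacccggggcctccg
The share with the stretch was high for Tgfbr1, low for Tgfbr2 and intermediate for Acvr2b. The 4 codons of Tgfbr1 were in transcripts that made up 92.5% and 93.6% of its coding level. The 25 codons of Tgfbr2 were in 36.8% and 39.9%. In Acvr2b the 24-base stretch of 8 codons was in 72.9% and 75.1% of the coding level and the 72-base stretch of 24 codons in 68.4% and 69.1%. Both libraries thus placed the Tgfbr2 form without its exon above the form with it, and the Acvr2b forms with each stretch above those without.

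The 3 coding transcripts of Acvr2b shared its level. Acvr2b-202, which holds both stretches, took 36.4% and 37.7% of it, Acvr2b-205, which lacks the 72 bases, 27.9% and 26.3%, and Acvr2b-201, which lacks the 24 bases, 23.96% and 21.2%. Shares are model estimates over whole transcripts, not counts of reads across a junction. The transcripts compared also differ elsewhere, by 340 exonic bases for the 24-base stretch of Acvr2b and 1806 for its 72-base stretch. For Tgfbr1 it was 2883 bases and for Tgfbr2 4731.

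**Figure D2:**
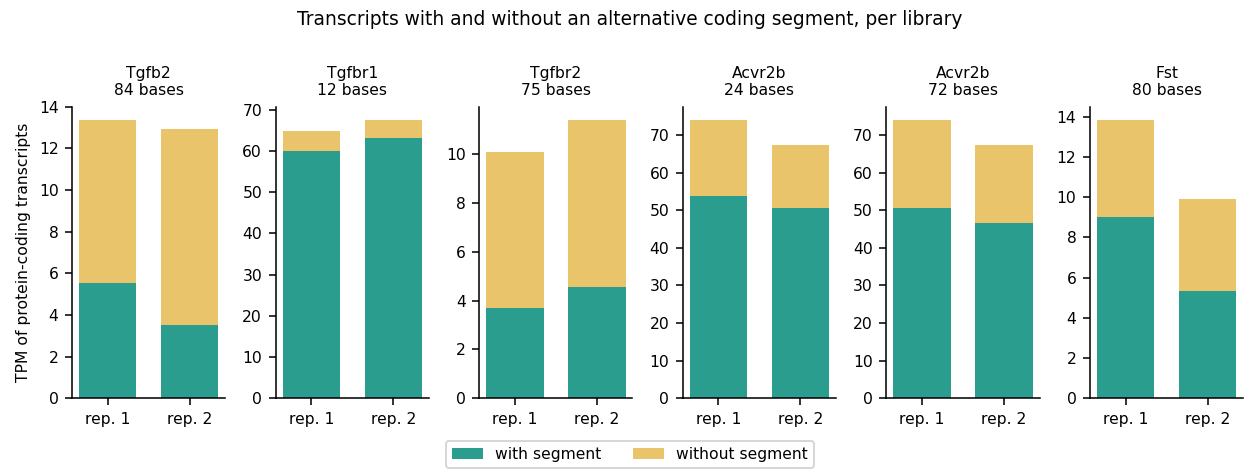
Summed TPM of protein-coding transcripts with (green) and without (yellow) each alternative coding stretch, 1 bar per library and 1 panel per stretch, each with its own axis from 0. The stretch of 12 bases in Tgfbr1 is in nearly the whole bar (92.5% and 93.6%), and the exon of 75 bases in Tgfbr2 in the smaller part (36.8% and 39.9%).

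Among the antagonists, Fstl1 was far above the classical BMP inhibitors. Fstl1, a secreted glycoprotein related to Follistatin that binds BMPs, stood at 135 and 138 TPM, at the 91.5th percentile of expressed protein-coding genes. Fst, the gene of the activin and BMP inhibitor Follistatin, was at 17.2 and 12.2 TPM, and Fstl1 exceeded it by 3.24 ± 0.37 on the log2 scale. Chrd, which encodes Chordin, was at 5.45 and 6.28 TPM and Nog, which encodes Noggin, at 2.93 and 3.47 TPM, a log2 ratio of Nog over Chrd of −0.88 ± 0.03. Grem1, the gene of Gremlin, was lowest at 1.10 and 1.04 TPM, on 93 and 91 counts. Bambi, a membrane protein that resembles a receptor without its kinase, was at 5.51 TPM in both libraries.

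How ligand and antagonist RNA compared turned on which antagonists were summed. The 5 summed BMP genes exceeded Nog, Chrd and Grem1 together by 1.73 ± 0.01 on the log2 scale, at 31.2 against 9.48 TPM in replicate 1 and 36.0 against 10.8 TPM in replicate 2. With Fst and Fstl1 added, the antagonists summed to 162 and 161 TPM, and the log2 ratio of the BMP genes over them was −2.27 ± 0.15. Of the Chrd level 74.6% and 69.6% was the coding transcript Chrd-201, and most of the rest lay on retained introns.

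Fst transcripts ended in 2 ways. The longer coding form of 1032 bases has a last exon that encodes an acidic tail of Follistatin, and the shorter form of 951 bases stops before it. The coding part of that exon is shown because it separates the 2 proteins, with its 80 bases in capitals at chr13:114453426-114453505 on the minus strand of mm10, after 15 bases of the preceding exon and before the stop codon and the bases that follow.
Fst tail exon of 80 bases: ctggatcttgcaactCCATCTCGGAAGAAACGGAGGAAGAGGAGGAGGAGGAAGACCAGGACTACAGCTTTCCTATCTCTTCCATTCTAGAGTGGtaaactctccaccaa
Transcripts with this tail made up 65.2% of the summed level of both forms in replicate 1 and 53.8% in replicate 2, and coding transcript Fst-204, at 2.53 and 1.18 TPM, was counted in neither. Transcript Fst-205, with the tail, was at 8.78 and 4.79 TPM, and Fst-202, without it, at 4.80 and 4.58 TPM. Summed, the transcripts with the tail were at 9.01 and 5.34 TPM, so most of the TPM difference between the pools over both forms was in the form with the tail. In estimated counts Fst-205, of 1113 bases, had 186 and 105 and Fst-202, of 2833 bases, 275 and 271. Fst-201, also with the tail, had 8.55 and 20.9 and so went the other way. These are model estimates, and Fst-201 and Fst-202 differ by 982 other exonic bases.

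The receptor Smads of the BMP side were led by Smad1. Smad1 stood at 56.3 and 67.7 TPM and its paralog Smad5 at 29.0 and 29.4 TPM, a log2 ratio of Smad5 over Smad1 of −1.08 ± 0.17. On the TGF-beta and activin side Smad2 was at 45.3 and 47.6 TPM and Smad3 at 20.4 and 19.4 TPM, and Smad2 exceeded Smad3 by 1.23 ± 0.10 on the log2 scale. None of these 4 genes overlapped another. Summed, Smad1 and Smad5 reached 85.3 and 97.1 TPM and Smad2 and Smad3 65.6 and 67.0 TPM, a log2 ratio of 0.46 ± 0.11. The order of the branches at the Smads was thus the opposite of that at the type I receptors in both libraries.

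Smad4, the partner common to both branches, was lower than Smad1, at 16.8 and 15.95 TPM, with a log2 ratio of −1.91 ± 0.24. Of the inhibitory Smads, which block the receptors and are themselves induced by the pathway, Smad6 was at 8.66 and 8.65 TPM and Smad7 at 3.72 and 3.80 TPM. Smad6, which acts mainly on BMP signals, exceeded Smad7 by 1.20 ± 0.02 on the log2 scale. In Smad2 the leading coding transcript, Smad2-201, took 51.0% and 52.6% of the level, a smaller share than in each of the other 6 Smads.

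The 4 Id genes, which encode partners that block basic helix-loop-helix factors and are classical BMP targets, together reached 585 ± 9.62 TPM. Id3 stood at 255 and 260.5 TPM, at the 96.1st percentile of expressed protein-coding genes. Id2 followed at 159 and 167 TPM. Id1 was at 84.0 and 81.1 TPM and Id4 at 80.7 and 83.1 TPM, and these last 2 overlapped and were not ordered. That and the sum of the 4 hold for M21. With M4, Id4 was at 147 and 149.96 TPM, above Id1 in both libraries. Over Id1, Id3 was higher by 1.64 ± 0.06 and Id2 by 0.98 ± 0.09 on the log2 scale. The Ids also respond to other signals, and no perturbation of BMP signalling was measured here.

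Promoters of 29 members were in the RefSeq table used, and windows of 260 bases, 250 before and 10 after each listed start on GRCm38.p6, were searched for 2 motifs known to bind Smads. GTCTAGAC is the palindromic form of the element bound by Smad3 and Smad4, and GGCGCC is a GC-rich element bound by BMP Smads; both read the same on either strand and do not overlap each other. GTCTAGAC was in 0.177% of all 32851 windows, and among the members in that of Smad6 alone. GGCGCC was in 9.96% of all windows, and among the members in those of Bmpr1a, Bmpr2, Chrd, Grem1, Id2, Id4, Smad5 and Tgfbr1. The window of Id3 held neither motif, and Id1 and Smad7 were among the members without a window. The windows of Smad6 (chr9:64022050-64022309, minus strand), Id2 (chr12:25096083-25096342, minus strand) and Id4 (chr13:48260866-48261125, plus strand) are shown as those of pathway target genes that hold a motif, which is in capitals.
Smad6 promoter: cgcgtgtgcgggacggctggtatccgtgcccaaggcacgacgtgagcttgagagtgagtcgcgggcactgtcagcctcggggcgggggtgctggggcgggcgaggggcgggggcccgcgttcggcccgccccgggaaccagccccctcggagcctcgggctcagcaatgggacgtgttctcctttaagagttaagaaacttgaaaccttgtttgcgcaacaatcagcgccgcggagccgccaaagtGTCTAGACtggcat
Id2 promoter: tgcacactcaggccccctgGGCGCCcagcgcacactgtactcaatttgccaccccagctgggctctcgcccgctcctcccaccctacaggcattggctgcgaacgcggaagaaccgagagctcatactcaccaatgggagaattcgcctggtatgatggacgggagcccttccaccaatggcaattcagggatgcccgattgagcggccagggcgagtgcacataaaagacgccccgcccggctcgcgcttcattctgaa
Id4 promoter: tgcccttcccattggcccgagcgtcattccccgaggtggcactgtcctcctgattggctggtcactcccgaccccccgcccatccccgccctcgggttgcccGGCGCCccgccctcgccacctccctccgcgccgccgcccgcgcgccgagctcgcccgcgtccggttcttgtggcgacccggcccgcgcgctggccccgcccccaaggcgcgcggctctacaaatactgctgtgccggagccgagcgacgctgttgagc
The Smad6 motif begins 4 bases before the listed start, the Id2 motif 231 bases before it and the Id4 motif 148 bases before it. A match describes these letters only, and binding was not measured.

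How far a single transcript accounted for the level varied between members. The members had 147 annotated transcripts, and 10 members had a single one, whose share is 100% by definition. In 25 members the leading transcript took at least 90% in both libraries, namely these 10 and 15 of the 31 with several. By posterior mean some of these shares were lower, for example that of Bmp6-201, at 73.3% and 81.6% against 100%. In 35 members the leading transcript took at least 60% in both, and the 6 others were Gdf7, Tgfb1, Tgfb2, Acvr2b, Fst and Smad2. In Tgfb1 the coding transcript Tgfb1-201 took 65.1% and 45.5%, from 57 and 38.13 counts. The same transcript led in both libraries for 39 members, and the exceptions were Gdf7 and Tgfb2. Transcripts not annotated as protein coding took at least 20% in both libraries in 6 members, which were Bmp1, Tgfb1, Tgfb2, Tgfbr3, Chrd and Fstl1.

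The levels of 3 members differed by over 1.5-fold between the 2 annotation releases. The same reads were also quantified by the authors with GENCODE release M4, and 35 of 41 members stood within 1.1-fold of their M21 level. Gdf10 was 2.19 times higher with M4, at 21.5 and 25.2 TPM, with 0.983 times the counts, and then stood above Gdf11 (16.6 and 16.9 TPM) in both libraries. Id4 was 1.81 times higher, at 147 and 149.96 TPM, with 0.719 times the counts, and then stood above Id1 in both libraries. Fst was at 0.607 times its M21 level, at 9.77 and 8.07 TPM, with 0.794 times the counts. Smaller changes beyond 1.1-fold were those of Tgfb1 (0.757 times), Chrd (0.865 times) and Tgfbr2 (1.17 times). For Gdf10 the counts were thus nearly equal between the releases while the level per length was not.

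**Figure D3:**
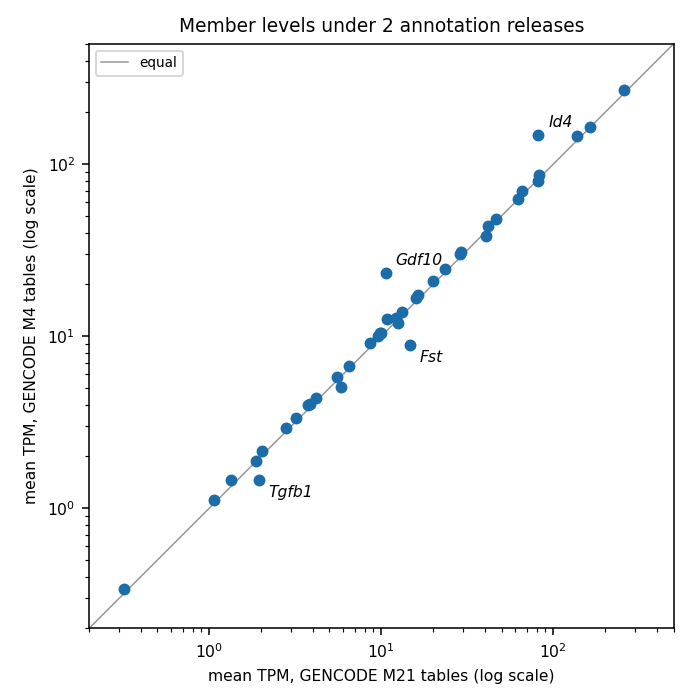
Mean TPM of each of the 41 genes with GENCODE M21 (horizontal, logarithmic) and M4 (vertical, logarithmic), 1 point per gene, with the line of equal values. Most points lie on the line, Gdf10 (2.19-fold) and Id4 (1.81-fold) lie above it and Fst (0.607-fold) and Tgfb1 (0.757-fold) below.

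The 2 pools were then compared with each other, and no member differed by over 1.5-fold. For every gene with at least 10 counts in either library, the counts were set against scaled library sizes in a two-sided exact binomial test, adjusted by Benjamini-Hochberg over 20125 genes. This test compares these 2 libraries, covers counting error only and has no replicate check. Of the 40 members tested, 11 passed an adjusted p of 0.05 (27.5%), where 20.3% of all tested genes passed. Of these, 6 were higher in replicate 2 and 5 lower, where 10.5% of all genes were higher and 9.78% lower. None of the members exceeded 1.5-fold, which 3.67% of all genes did with an adjusted p under 0.05 (1.45% were higher by that much and 2.22% lower). By the ratio alone, whatever the p, 2255 of the 20125 genes exceeded 1.5-fold. The ratios of all genes were widest at low counts, and 32 of the 40 members had at least 500 counts over both libraries. Among genes with at least 500 counts over both libraries, 10 of 32 members passed, where 27.9% of all such genes did. The median log2 ratio of replicate 2 over replicate 1 was −0.02 over the members and −0.00 over all tested genes, and the median size of the ratio was 0.12 and 0.13. With at least 500 counts that order turned, at 0.09 over the members and 0.08 over all genes.

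The largest differences that passed were in Inhbb and Fst. Inhbb, at 1.68 and 2.39 TPM from 146 and 215 counts, was higher in replicate 2 by 0.46 on the log2 scale (exact binomial, adjusted p = 0.0179). Fst, at 17.2 and 12.2 TPM from 560 and 458 counts, was lower in replicate 2 with a log2 ratio of −0.38 (exact binomial, adjusted p = 0.000433). Smad1, from 3441 and 4228 counts, was higher by 0.21 and had the smallest p of the members (exact binomial, adjusted p = 1.37e-08). Gdf10 was higher by 0.20 on the log2 scale, Tgfbr2 by 0.17, Bmp1 by 0.12 and Acvr2a by 0.09 (exact binomial, adjusted p from 0.00730 to 0.0233). Lower in replicate 2 were Acvr1b (−0.18), Acvr2b (−0.16), Bmpr2 (−0.15) and Smad3 (−0.14), with adjusted p from 7.06e-05 to 0.0180 in the exact binomial test. No Id gene and no inhibitory Smad passed.

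**Figure D4:**
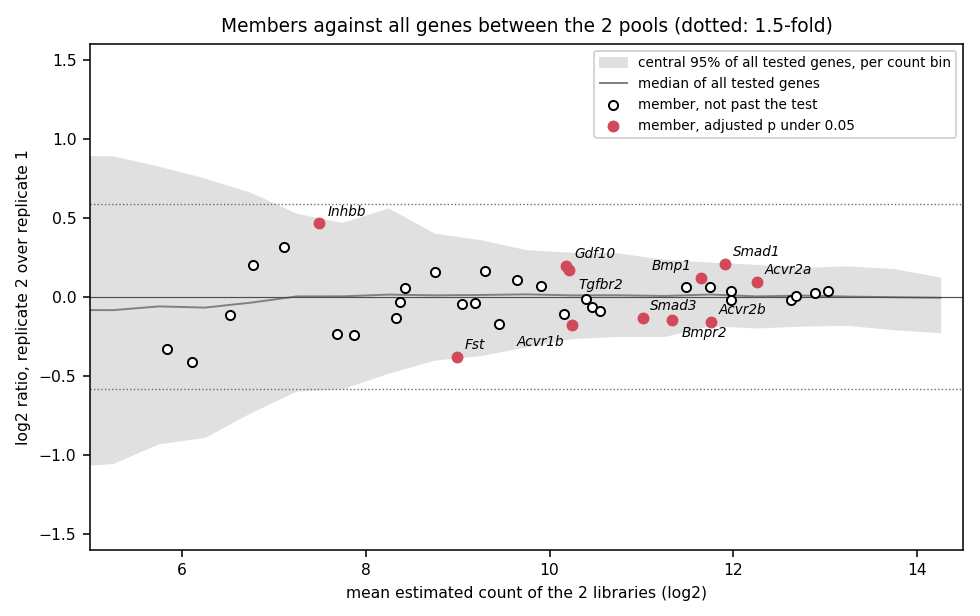
Log2 ratio of replicate 2 over replicate 1 (vertical) against the mean estimated count on the log2 scale (horizontal) for 40 members, with the central 95% of all tested genes in grey and dotted lines at 1.5-fold. Named red points are the 11 members that differed at an adjusted p under 0.05 (exact binomial), and all members lie within 1.5-fold.

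The pools also differed in markers of other cells. Over all tested genes 10.5% passed higher in replicate 2 and 9.78% lower. By the exact binomial test, all 6 sensory ganglion markers were higher in replicate 2 (sums of 182 and 264 TPM). All 6 muscle markers were lower (251 and 181 TPM). The highest of them by level, the cardiac actin gene Actc1, was at 124 and 83.8 TPM, and the widest fall was in the myogenic factor gene Myf5, with a log2 ratio of −1.09. Lower too were 5 of 6 cartilage and sclerotome markers (270.02 and 252 TPM). The 2 highest by level, Col2a1 (−0.15) and Sox9 (−0.06), fell least of these, and Nkx3-2 (−0.92), Pax1 (−0.72) and Pax9 (−0.67) fell by over 1.5-fold. Myf5 and these last 3 were named after their values were seen. Of 7 roof plate markers 3 were higher and none lower (48.8 and 65.3 TPM), and of 5 Schwann cell and crest markers 2 were higher (70.8 and 85.2 TPM). The mesenchyme and meninges sum was 869 and 894 TPM with 1 of 10 markers lower, the endothelium sum 123 and 127 TPM with 2 of 6 higher, the neural tube sum 1207 and 1208 TPM with 2 of 6 lower, and none of 5 macrophage markers passed (57.0 and 62.6 TPM). The part of these cells in the differences of the members was not tested.

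A test that allows for spread beyond counting error called no member. The biological coefficient of variation, estimated by edgeR over all genes from these same 2 libraries, was 7.36%. That spread holds the differences between the pools themselves, so failing this test does not show a gene to be equal in both. At that spread, edgeR's exact test passed 227 genes and 0 members at an adjusted p of 0.05, with 2 members at an unadjusted p under 0.05. Of the marker calls, 3 of 6 passed it for sensory ganglion, 2 of 6 for muscle, 1 of 5 for cartilage and sclerotome and 2 of 3 for roof plate, and none passed for the other marker lists. Scaled by the spike-ins instead, 14 of 40 members passed in the binomial test, 12 higher and 2 lower. Of all 20125 tested genes 5062 then passed, 3891 higher and 1171 lower. The median log2 ratio of all tested genes was 0.05. Under that scaling Acvr1b, Bmpr2 and Smad3 no longer passed, and Bmpr1a, Tgfbr1, Tgfbr3, Fstl1, Smad2 and Id2 did.

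Other genes of the pathway, in 6 lists, showed few further ligands and many regulators. Calls between the pools in these lists stand beside 10.5% of all tested genes that passed higher and 9.78% that passed lower. Of 20 other ligand genes 4 reached 1 TPM in each library. The highest were Inha, which encodes the inhibin subunit, at 5.69 and 7.92 TPM, Mstn, the gene of Myostatin, at 3.55 and 3.81 TPM, and Gdf1, a Nodal partner, at 3.03 and 1.81 TPM. All exonic bases of Gdf1 are shared with Cers1 on the same strand, so its reads are uncertain. Between the pools 1 passed higher and 2 lower, and the latter 2, Gdf1 and the joint ligand gene Gdf5 (1.57 and 0.91 TPM), were lower by over 1.5-fold in the exact binomial test. Neither passed edgeR's exact test (adjusted p = 0.327 for Gdf1 and 0.292 for Gdf5). Of all calls in the 6 lists, those of Htra1 and Atoh1 alone passed it. Bmp10, Gdf2 and Inhbc had 0 counts in both libraries, which allows up to 0.0326, 0.0496 and 0.0814 TPM in replicate 1 (3 counts).

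Of 8 other receptors and co-receptors, 5 were expressed. The repulsive guidance genes Rgmb, at 103 and 115 TPM, and Rgma, at 38.2 and 38.6 TPM, encode BMP co-receptors, and Neo1, at 41.5 and 47.6 TPM, encodes their receptor neogenin. Rgmb stood above every member except Id3, Id2 and Fstl1. Between the pools 2 of the list passed higher and none lower. Of 22 other extracellular modulators 17 were expressed, led by Twsg1, a Chordin cofactor, at 58.7 and 62.3 TPM, the BMP antagonist gene Nbl1 at 36.8 and 35.7 TPM and Fstl5 at 20.8 and 21.4 TPM. In that list 2 passed higher and 2 lower, and the protease gene Htra1 was lower by over 1.5-fold, at 10.8 and 6.26 TPM. The list also holds Bmp2k, which is a kinase inside the cell.

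Of 18 other intracellular regulators 17 were expressed. They were led by Fkbp1a, which guards the TGF-beta type I receptor, at 478 and 476 TPM, the phosphatase gene Ppm1a at 65.1 and 69.5 TPM and the deubiquitinase gene Usp15 at 54.5 and 63.0 TPM. Between the pools 3 passed higher and 1 lower, none by over 1.5-fold. The third BMP receptor Smad, Smad9, was the 1 gene of the list below 1 TPM, at 0.35 TPM in both libraries, far below Smad1 and Smad5; it was singled out after its values were seen.

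All 7 BMP-responsive genes of the dorsal neural tube were expressed, and they summed to 176 and 204 TPM. The homeobox genes Msx3, at 63.8 and 75.6 TPM, and Msx1, at 30.3 and 39.9 TPM, and the Notch effector gene Hey1, at 36.4 and 36.2 TPM, were the highest. Between the pools 4 passed higher and 1 lower, where 10.5% of all tested genes passed higher and 9.78% lower. Atoh1, which specifies the most dorsal interneurons, was higher by over 1.5-fold, at 3.75 and 6.64 TPM. The 1 lower gene was Msx2, at 11.8 and 8.88 TPM (log2 ratio −0.46, exact binomial, adjusted p = 9.81e-06). Msx2 was named after its values were seen. Msx1 and Lmx1a are in this list and in the roof plate list. Of 7 TGF-beta target genes measured 4 were expressed, namely the collagen gene Col1a1 at 172 and 165 TPM, Tgfbi at 30.4 and 31.5 TPM, Pmepa1 at 5.78 and 5.23 TPM and Ccn2 at 4.59 and 3.09 TPM. Between the pools none of them passed higher and 2 passed lower. Col1a1 is also in the mesenchyme list, so its level is no measure of TGF-beta response in neural cells.

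**Figure D5:**
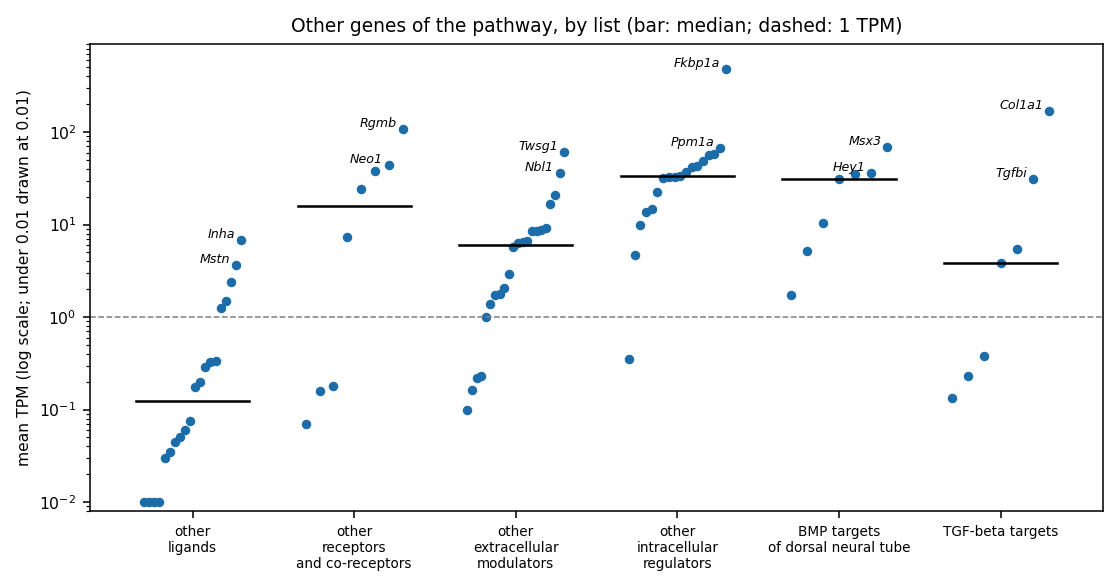
Mean TPM (logarithmic) of the other pathway genes, 1 point per gene and 1 column per list, with a bar at the list median and a dashed line at 1 TPM; values under 0.01 are drawn at 0.01. Most other ligands lie below the dashed line (median 0.125 TPM), and 17 of 18 intracellular regulators lie above it.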

How the data were processed

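Neural tube of mouse embryos was profiled in 1 group of 2 libraries, and per the labels each came from its own pool of embryos. Notes deposited by the authors beside each library name assembly mm10, an alignment to the transcriptome and quantification with GENCODE M21 and again with M4. Aligner and quantifier are not given in the sources consulted, and per the file headers the columns are named as RSEM names them. The deposited estimated count gives the reads of a gene or transcript, with shared reads divided between features, and need not be whole. The posterior SD of the count deposited beside it was above 0 for 9 members, at most 8.35 counts for Acvr2a. The deposited TPM is that estimate per effective length, scaled to a fixed sum over the table, spike-ins included. The share of a transcript in its gene's TPM is deposited by the authors as a percent. No strand-specific step is named in the labels, so reads of overlapping genes on opposite strands cannot be told apart.

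The 41 members and all gene lists were chosen with earlier results of these data known. Levels are TPM as deposited in each library, with mean ± SD (n = 2), and ratios between genes are log2 ratios of TPM without a pseudocount. Of 19 preset pairs, 15 were ordered, that is with 1 sign in both libraries and a mean above the SD. For the pool comparison estimated counts were rounded, TMM in edgeR 4.0.16 (R 4.3.3) scaled the library sizes, a gene needed 10 counts in 1 library or more, and the log2 ratio used a prior count of 2. The exact binomial test was tried on simulated counts with counting error only, which cannot show how it behaves under wider spread. Intervals and tests cover counting error only, and PCR copies count as reads because there were no molecular identifiers. Alternatives were DESeq2 1.42.0 size factors, spike-in and total-count scaling, no count filter, edgeR's exact test, M4 tables and log2 of TPM + 1.

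Named are all 41 members; of each of 6 other pathway lists the 3 highest, those past 1.5-fold with an adjusted p under 0.05 and those at 0; of each of 9 marker lists up to the 2 highest; and in the isoform account the members whose leading transcript takes under 60%. Receptor, ligand and Fst stretches and the genes in which transcripts not annotated as protein coding took at least 20% were added after values were seen. So were the antagonist sum with Fst and Fstl1 and the comparison at 500 counts. Promoters are from RefSeq on GRCm38.p6 and transcript sequences from GENCODE M21. Protein sequences were planned and not used here, and sequence from chromosome 18 is not shown. Tables and plots were made in Python 3.11.15 with pandas 2.3.3, numpy 2.4.6, matplotlib 3.10.9 and scipy 1.17.1.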

Additional observations from a re-analysis of the deposited data

How the results depend on the processing

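Without either library, 40 members again reached 1 TPM in the other, and the leading transcript took at least 60% in 36 and 37 members, against 35 in both. Taking 1 library at a time, the share of coding level with the alternative stretch ran from 27.2% to 41.5% for Tgfb2, 92.5% to 93.6% for Tgfbr1, 36.8% to 39.9% for Tgfbr2, 72.9% to 75.1% and 68.4% to 69.1% for the 24 and 72 bases of Acvr2b, and 53.8% to 65.2% for Fst. No paired analysis was possible because there is 1 group, and the pool comparison has 1 library a side, so none could be left out of it.

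The 11 members that differed between the pools fell to 0 under edgeR's exact test, which uses a spread estimated from the same 2 libraries. Members called numbered 14 with spike-in scaling, 10 with M4 tables (Bmp1 lost its call) and 11 under each other setting. The calls over all genes moved too, from 4080 of 20125 to 5062 with spike-in scaling and 227 with edgeR's exact test. They were 3898 of 18215 with M4 tables and 3587 of 30098 without the count filter. DESeq2 size factors gave 4061 and total-count scaling 4091 of 20125. Spike-in scaling adds 0.056 to every log2 ratio, which turned it above 0 for Bmp5 (0.023), Gdf11 (0.043), Bambi (0.016), Smad5 (0.037), Smad6 (0.013) and Id3 (0.038). With log2 of TPM + 1 it turned for Bmp5 (0.0028), Gdf11 (0.026), Smad5 (0.020), Smad7 (0.024) and Id3 (0.033), and with M4 tables for Id4 (−0.013). None of these genes passed the test under any of those settings, and the cause of the turns without spike-in scaling was not tested. Of 19 pairs 18 were ordered with M4 and 16 with posterior mean TPM, against 15. The mean log2 ratio moved by more than its SD in 5 pairs with M4 and in 5 with posterior mean TPM. With M4, Tgfb2 over Tgfb1 went from 3.60 to 4.07, Nog over Chrd from −0.88 to −0.60 and Fstl1 over Fst from 3.24 to 4.03. Id4 over Id1 went from −0.01, which was not ordered, to 0.78 ± 0.06, which was. Bmpr1a over Bmpr1b went from 1.577 to 1.572. Depth limits Gdf7, with 9 counts a library, most.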
